A study of Mus musculus with 36 samples.

Results

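The genes described here are the clustered histone genes of the mouse, the short genes that encode the linker histone H1 and the core histones H2A, H2B, H3 and H4. They were taken as every symbol of the count table that begins with Hist1h, Hist2h, Hist3h or Hist4h and has a mean deposited count of at least 10 over the 36 libraries. The rule kept 60 of 69 such symbols, among 36856 symbols in the table and 16065 that had enough counts to be tested. Of the 60 members, 5 encode H1, 16 encode H2A, 18 encode H2B, 12 encode H3 and 9 encode H4. By the Hist number in the symbol, 51 lie in the Hist1 cluster on chromosome 13, 7 in the Hist2 cluster on chromosome 3 and 2 in the Hist3 cluster on chromosome 11. The members were thus chosen by their mean count, which is given as a description only. Levels are given as CPM, a count scaled to a common library total, and 25 members had a mean level under 1 CPM.

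RNA was sequenced from mouse embryonic fibroblasts, cultured connective tissue cells, of 2 genotypes. One was wild type (WT) and the other was PERK -/-, lacking the kinase PERK that senses unfolded protein in the endoplasmic reticulum and is encoded by Eif2ak3. Each genotype was exposed to DMSO, thapsigargin, BtdCPU, halofuginone, BtdCPU with thapsigargin, or halofuginone with thapsigargin, which gave 12 groups of 3 libraries. The series title places the work in the study of the integrated stress response in PERK-deficient cells, and the comparisons ask how these agents act with and without PERK. Thapsigargin blocks the calcium pump of the endoplasmic reticulum and so activates PERK. BtdCPU activates HRI, another kinase of that response, and halofuginone inhibits prolyl-tRNA synthetase and so activates the kinase GCN2. The labels give no dose, exposure time, batch, derivation of the lines or statement that libraries came from separate cultures. The p-values below therefore measure the spread between these libraries, which may be technical.

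Most clustered histone genes are transcribed strongly in S phase, when new chromatin needs histones, and are known as replication-dependent. Their mRNAs usually end in a conserved stem-loop, bound by the protein SLBP, in place of a poly(A) tail, and they are degraded when DNA synthesis stops. Some can also be made as polyadenylated transcripts from sites beyond the stem-loop, a form reported in cells that leave the cell cycle. H2A, H2B, H3 and H4 form the nucleosome core, and H1 binds the DNA where it enters and leaves the core. The labels list both ribosomal depletion and mRNA selection for these libraries. A change in the amount of a histone mRNA and a change in the share of it that carries a poly(A) tail cannot be told apart here.

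The stem-loop was searched for because it separates the usual form of a histone mRNA from the polyadenylated form. The letters searched were GG, 2 bases of any kind, CTTTT, 1 base of any kind, AG, 2 bases of any kind and CC, 16 bases in all, on the transcript strand of the GENCODE M21 models of GRCm38. A match was kept only if its first 6 bases were the reverse complement of its last 6, so that they can form a stem. Such matches occurred in a transcript of 38 of the 60 members, and in 49 of 21924 protein-coding genes (0.223%). Of those 49 genes, 44 were clustered histone genes. The stretches below show 1 or more members of each class with the core in capitals and 5 bases on either side in lower case, written as DNA, 5′ to 3′.
Hist1h1c: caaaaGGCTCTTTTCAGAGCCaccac
Hist1h1d: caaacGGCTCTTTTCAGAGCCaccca
Hist3h2a: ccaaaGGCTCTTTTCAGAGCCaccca
Hist1h2bg: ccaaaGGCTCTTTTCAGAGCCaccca
Hist3h2ba: ccaaaGGCTCTTTTCAGAGCCacctt
Hist1h3d: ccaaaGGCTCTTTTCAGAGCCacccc
Hist1h4i: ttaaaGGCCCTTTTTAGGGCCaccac
Hist1h4h: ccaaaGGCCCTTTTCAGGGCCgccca
Hist1h4d: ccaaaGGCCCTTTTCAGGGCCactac
Hist1h4b: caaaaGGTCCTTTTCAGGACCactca
The core of Hist1h1c was the commonest, with 26 members of the H1, H2A, H2B and H3 classes. A form with an A in the loop, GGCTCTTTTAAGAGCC, was found in 5 members, Hist1h2bb, Hist1h2bk, Hist1h3c, Hist1h3e and Hist1h3f. The H4 members with a core had other stems: 4 shared the core shown for Hist1h4h and 2 had the core shown for Hist1h4b. Among the members Hist1h4i alone had its core, which differed from that of Hist1h4h in the loop only.

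Annotated transcripts often ran on past the stem-loop. The model of Hist1h1c held 840 bases after the core, that of Hist3h2a 1643, that of Hist1h4d 770 and that of Hist1h2bg 155, whereas that of Hist1h4h held 46 and that of Hist1h4b 28. A stretch of over 100 bases followed the core in 18 members, at most 100 bases followed it in 20, and 22 members had no core in any model. Some models without a core were short, as those of Hist1h4k at 312 bases and Hist1h2bn at 381, while that of Hist2h2be had 2620. A core missing from a model therefore does not show that the gene lacks one. These lengths come from an annotation of GRCm38, while the deposited counts were made on GRCm39 according to the submitters' processing notes, so they describe the genes and not the counting.

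Promoters are shown for 1 member each of H1, H2B and H4, since the 3 classes differed in their motifs and in the size of their changes. The windows are RefSeq's on GRCm38.p6, from 250 bases before to 50 bases after the start, and 54 of the 60 members were matched to one. Capitals mark every match, on either strand, to TATAAA (the TATA box letters), CCAAT (the box bound by NF-Y) and ATTTGCAT (the octamer bound by OCT1). A match could lie anywhere in the window, at any distance from the start.
Hist1h1c, RefSeq symbol H1f2, plus strand, chr13:23738557-23738856: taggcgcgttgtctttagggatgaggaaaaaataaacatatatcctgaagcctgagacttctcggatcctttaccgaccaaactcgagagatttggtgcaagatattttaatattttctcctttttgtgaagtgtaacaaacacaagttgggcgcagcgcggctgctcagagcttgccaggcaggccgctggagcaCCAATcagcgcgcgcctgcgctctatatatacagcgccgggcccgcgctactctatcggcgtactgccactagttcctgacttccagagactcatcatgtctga
Hist1h2bg, RefSeq symbol H2bc8, plus strand, chr13:23571150-23571449: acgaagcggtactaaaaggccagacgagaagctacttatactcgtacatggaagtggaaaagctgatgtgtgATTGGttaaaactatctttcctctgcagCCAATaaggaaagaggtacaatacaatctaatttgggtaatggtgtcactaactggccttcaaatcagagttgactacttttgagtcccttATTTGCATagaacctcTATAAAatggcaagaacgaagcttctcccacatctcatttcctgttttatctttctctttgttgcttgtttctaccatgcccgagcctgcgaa
Hist1h4i, RefSeq symbol H4c9, minus strand, chr13:22041313-22041612: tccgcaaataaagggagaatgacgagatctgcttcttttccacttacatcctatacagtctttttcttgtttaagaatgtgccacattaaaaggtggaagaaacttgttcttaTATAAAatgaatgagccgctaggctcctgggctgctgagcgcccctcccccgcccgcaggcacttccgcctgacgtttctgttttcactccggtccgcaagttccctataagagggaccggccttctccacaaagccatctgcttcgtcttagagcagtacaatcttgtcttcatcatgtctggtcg
The window of Hist1h2bg held all 3 motifs, that of Hist1h1c only CCAAT and that of Hist1h4i only TATAAA. Over the 54 windows, TATAAA was present in 31 (57.4%), against 14.1% of the 26963 other promoters of that length. By class it was in 4 of 5 H1, 8 of 14 H2A, 8 of 16 H2B, 4 of 10 H3 and 7 of 9 H4 windows. The Hist1h1c window thus lacked a match that most H1 windows held, and a window shown does not stand for its class. CCAAT was present in 47 (87.0%), against 37.8%, and the octamer in 11 (20.4%), against 1.71%. Every matched H1, H2A, H2B and H3 window held CCAAT, but 2 of 9 H4 windows did (22.2%). The octamer was found in 5 of 14 H2A windows (35.7%), in 6 of 16 H2B windows (37.5%) and in no other class. Some H2A and H2B genes are divergent neighbours whose windows overlap, so these windows are not independent. A match to letters is a description and not a bound site.

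The libraries held 32454257 to 37178107 estimated counts and were of like depth. The 60 members took 0.00252% to 0.163% of the counts of a library. Eif2ak3, the targeted gene, was at 30.3 to 32.4 CPM in WT with DMSO and at 9.37 to 10.8 CPM in PERK -/- with DMSO, and in each treatment every PERK -/- library was below every WT library. All 8 fibroblast markers exceeded 1 CPM in every library, while 0 of 3 hematopoietic, 0 of 4 endothelial, 0 of 4 epithelial and 0 of 4 muscle markers did. Of the neural markers 2 of 4 did, Tubb3 and Map2. Replicate libraries differed from each other by more than sampling noise in every group.

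Histone mRNA rose most in WT cells with halofuginone. The summed level of the 60 members was 49.0 ± 3.75 CPM in WT cells with DMSO (mean ± SD, n = 3, as throughout). It was 882, 779 and 1841 CPM in the 3 WT halofuginone libraries, a mean of 1167 ± 586 CPM and 23.8 times the DMSO mean, or 16.9 times without the third library. The third library stood apart, and the other 2 were still far above every DMSO library. In bulk RNA, a change in how many cells express a gene and a change in its RNA per cell cannot be told apart. With thapsigargin the sum was 202 ± 46.9 CPM in WT, 4.12 times the DMSO mean, and with BtdCPU it was 31.8 ± 5.97 CPM. PERK -/- cells had a higher sum in DMSO, at 84.4 ± 7.94 CPM. Their sum was 120 ± 15.4 CPM with thapsigargin, 70.6 ± 9.99 CPM with BtdCPU and 223 ± 31.5 CPM with halofuginone. The ratio to DMSO in PERK -/- was smaller than in WT with thapsigargin, at 1.42, and with halofuginone, at 2.64. With BtdCPU it was 0.836 in PERK -/- against 0.649 in WT. The plot of class sums by group shows these levels class by class.

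**Figure D1:**
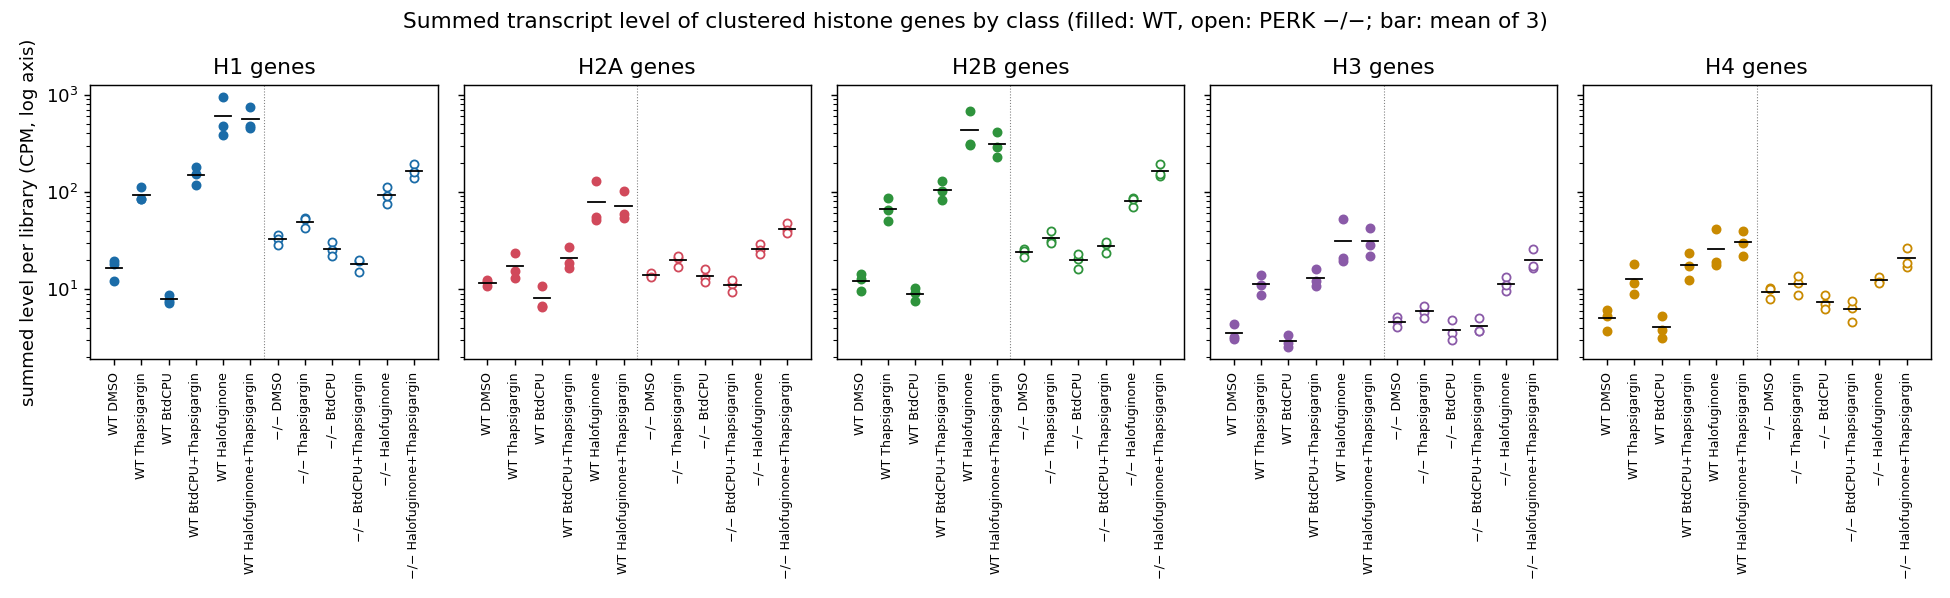
Summed level of the members of each histone class (CPM, logarithmic axis) in the 36 libraries, by group; filled points are WT, open points are PERK -/-, and bars are means of 3. In every class the WT halofuginone libraries lie above the WT DMSO libraries, with H1 at 386 to 939 CPM and H2A at 51.6 to 130 CPM.

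In WT cells with halofuginone, 59 of the 60 members were called higher and none lower by edgeR's quasi-likelihood test with Benjamini-Hochberg adjustment over all tested genes, at an adjusted p below 0.05. In this comparison 68.2% of all tested genes were called in either direction and 34.7% were called higher. The median log2 fold change of the members was 3.22, against a value near 0 over all tested genes, and the members ranged from 0.07 to 9.14. All 59 called members had WT halofuginone and WT DMSO libraries that did not overlap. The threshold on mean count could be passed through the halofuginone libraries alone: without those 6 WT libraries 57 members kept a mean count of at least 10, and 56 of the 57 were called higher, with a median of 3.25. The 3 that did not were Hist1h2ak, Hist1h3a and Hist3h2ba, whose rises with halofuginone were favoured by the choice of members and are descriptions. That check kept the PERK -/- halofuginone libraries. Hist1h2bb, Hist1h2bm, Hist1h3e, Hist1h3f and Hist2h2be also had a mean count below 10 over the libraries without halofuginone. Their rises with halofuginone in either genotype are therefore descriptions too. Among the 25 members with a mean under 1 CPM, 24 were called. Leaving out the third WT halofuginone library gave 58 calls and a median of 2.49.

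H1 and H2B genes had the highest class medians. With halofuginone in WT, 5 of 5 H1 genes rose with a median log2 fold change of 5.63, and 18 of 18 H2B genes rose with a median of 5.38, or 5.18 with Hist3h2ba set to its lower bound. All 16 H2A genes rose with a median of 2.23, all 12 H3 genes with 2.78, and 8 of 9 H4 genes with 2.76. The summed level of H1 went from 16.6 ± 3.87 to 600 ± 297 CPM, 36.1 times higher. The sum of H2B went from 12.1 ± 2.39 to 431 ± 213 CPM, 35.5 times higher. The sum of H2A was 6.78 times higher, that of H3 8.72 times and that of H4 5.15 times. Without the third WT halofuginone library the ratio was 25.9 for H1, 25.4 for H2B, 4.58 for H2A, 5.66 for H3 and 3.59 for H4. H1 thus made up 34.0 ± 8.05% of the members' CPM in WT with DMSO and 51.4 ± 2.08% with halofuginone, while H2A went from 23.8 ± 1.48% to 6.65 ± 0.421% and H4 from 10.3 ± 2.05% to 2.22 ± 0.0769%.

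Hist1h1c, which encodes an H1 linker histone found widely in somatic cells, was the most abundant member. It was at 18.7, 10.9 and 16.9 CPM in WT with DMSO and at 429, 352 and 799 CPM with halofuginone. Every treated library was far above every control library, and the log2 fold change was 5.09 (SE 0.273, adjusted p = 3.12e-16, edgeR). Hist1h1c alone made up 20.6% to 52.5% of the members' CPM in a library. Hist1h1d, another somatic H1, was at 0.371, 0.478 and 0.186 CPM in WT with DMSO and at 20.3, 16.5 and 63.2 CPM with halofuginone. Its change was larger on the log2 scale, 6.56 (SE 0.464). Hist1h1b, another H1 gene, was at 0.229, 0.337 and 0.279 CPM with DMSO and at 12.9, 10.1 and 37.2 CPM with halofuginone, a log2 fold change of 6.14 (SE 0.527). In both genes the third halofuginone library was the highest by a wide margin.

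Among the H2B genes, Hist1h2bc was the most abundant, at 6.29, 7.50 and 5.11 CPM in WT with DMSO and 160, 159 and 306 CPM with halofuginone. The log2 fold change of Hist1h2bc was 5.04 (SE 0.268, adjusted p = 2.64e-16, edgeR). Hist1h2bg, whose promoter is shown above, rose by 4.76 (SE 0.284) and Hist1h2be by 5.31 (SE 0.283). Hist1h2bn was at 0.200, 0.0843 and 0.310 CPM with DMSO and 11.6, 10.7 and 54.8 CPM with halofuginone, a log2 fold change of 7.02 (SE 0.624). Hist3h2ba, the H2B gene of the Hist3 cluster, had counts of 0, 0 and 0 in WT with DMSO and of 34, 77 and 84 with halofuginone. Against the 3 counts per library that a count of 0 allows, it was at least 4.49 higher on the log2 scale. Its fitted value of 9.14 is the highest of the members and depends on the prior count of the fit. Hist3h2ba passed the threshold on mean count only through the WT halofuginone libraries, with a mean count of 6.57 without them, so these values describe the gene and test nothing.

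The H2A, H3 and H4 classes had lower medians than H1 and H2B. Hist3h2a, the H2A gene that pairs with Hist3h2ba, was at 4.03, 4.36 and 3.90 CPM in WT with DMSO and 28.1, 22.3 and 72.5 CPM with halofuginone, a log2 fold change of 3.32 (SE 0.329). The annotation of Hist3h2a overlaps an exon of Trim17, which was also tested. Hist1h2ac rose by 4.62 (SE 0.444) and Hist1h2al, annotated as a processed pseudogene, by 2.64 (SE 0.322). Of the H3 genes, Hist1h3d rose by 4.28 (SE 0.491), Hist1h3g by 3.91 (SE 0.438) and Hist2h3c1 by 2.80 (SE 0.438). Hist1h4i, the most abundant H4 gene, was at 3.29, 4.02 and 2.45 CPM with DMSO and 11.5, 10.2 and 22.3 CPM with halofuginone, a log2 fold change of 2.17 (SE 0.323). Hist1h4k rose by 3.75 (SE 0.440) and Hist1h4n by 3.00 (SE 0.492).

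Hist1h4d was the member that did not pass. It was at 0.457, 0.337 and 0.0929 CPM in WT with DMSO and 0.217, 0.322 and 0.401 CPM with halofuginone. The 2 groups overlapped, the log2 fold change was 0.07 (SE 0.503) and the adjusted p was 0.909 by edgeR. Across the 36 libraries the log2 CPM of Hist1h4d had a Pearson correlation of 0.154 with the mean of the other members, the lowest of all 60, against a median of 0.931 and a highest value of 0.987 for Hist1h2bc. The 36 libraries share their groups, and the correlation is given as a description. Its stem-loop core, printed above, is shared with 3 other H4 members.

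Per kilobase of the longest annotated transcript, the 6 highest members in WT with DMSO were Hist1h1c at 9.93 CPM per kilobase, Hist1h2bc at 5.45, Hist1h4i at 4.47, Hist1h2bg at 2.78, Hist1h2al at 2.64 and Hist3h2a at 1.91. With halofuginone the 4 highest on this scale were Hist1h1c at 337, Hist1h2bc at 180, Hist1h2bg at 76.0 and Hist1h2bn at 67.4 CPM per kilobase. Hist1h2bn had been at 0.520 CPM per kilobase in DMSO. Hist1h4i was 11th of the 60 members with halofuginone, at 20.2, and Hist3h2a 12th, at 19.1 CPM per kilobase. The third WT halofuginone library raised these means. Without it the 4 highest were in the same order, at 250.2, 138, 58.5 and 29.2 CPM per kilobase, with Hist1h4i at 14.9 and Hist3h2a at 11.7.

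Many members are near copies, so reads could be split between them. A median of 54.3% of the 50-base windows of a member's transcripts also occurred in another clustered histone gene, 32 members shared at least 50% and 7 at least 90%. The class median was 2.21% for H1, 79.3% for H2A, 44.9% for H2B, 57.2% for H3 and 45.8% for H4. Hist1h1c shared 8.54%, Hist3h2a 2.00% and Hist1h2bc 29.4%, whereas Hist1h2bn shared 86.4% and Hist1h2bl 82.8%. Single values of the members that share most are therefore uncertain. Hist1h1a, Hist1h1b, Hist2h2bb and Hist2h2be shared no such window with another clustered histone gene. Windows shared with other genes or pseudogenes were not searched for. How reads that fit several copies were counted is not given in the sources used here.

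Members with and without a long annotated stretch after the stem-loop both rose with halofuginone in WT. Of the 18 with over 100 bases after the core, 17 were called, with a median log2 fold change of 3.80. All 20 with at most 100 bases were called, with a median of 3.00, as were all 22 with no core in a model, with a median of 3.83. In WT with thapsigargin the calls were 12 of 18 with a median of 2.15, 7 of 20 with a median of 0.62, and 16 of 22 with a median of 2.00. The 3 medians in PERK -/- with halofuginone were 1.38, 1.36 and 1.47. These are descriptions of sets that also differ in class.

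With thapsigargin in WT, 35 of 60 members were called higher and none lower, where 47.6% of all tested genes were called in either direction and 24.9% were called higher. The median log2 fold change of the members was 1.41, against 0.02 over all tested genes. All 35 had groups that did not overlap. The thapsigargin, BtdCPU and halofuginone comparisons of a genotype share its 3 DMSO libraries. All 5 H1 genes rose, with a median of 2.94, and 15 of 18 H2B genes, with a median of 2.57. Of the H3 genes 7 of 12 rose with a median of 1.65, of the H4 genes 5 of 9 with 1.32, and of the H2A genes 3 of 16 with 0.37.

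The 3 H2A genes called with thapsigargin in WT were Hist1h2ac, Hist1h2ah and Hist1h2al, named here after their values were seen. Hist1h1c was at 99.4 CPM in the second WT thapsigargin library and near 75 in the other 2, all above the DMSO libraries, and its log2 fold change was 2.42 (SE 0.246, adjusted p = 1.39e-09, edgeR). Hist1h2bc was at 34.7, 42.4 and 24.7 CPM, a change of 2.43 (SE 0.246). Hist1h1d was at 4.05, 5.59 and 4.30 CPM, a change of 3.73 (SE 0.467), and Hist1h2bn at 1.95, 3.67 and 2.78 CPM, a change of 3.82 (SE 0.649). Hist3h2ba had 31, 32 and 16 counts, at least 3.11 higher on the log2 scale than the floor of 3 counts. Hist3h2a was at 6.44, 8.91 and 5.05 CPM, which did not pass, with a log2 fold change of 0.73 (SE 0.320, adjusted p = 0.0595). Hist1h4i rose by 1.32 (SE 0.322, adjusted p = 0.0011, edgeR).

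BtdCPU alone lowered 1 member in WT. Hist1h1c was at 6.46, 7.97 and 6.83 CPM, below the 10.9 to 18.7 CPM of the DMSO libraries, a log2 fold change of -1.13 (SE 0.253, adjusted p = 0.0015, edgeR). In this comparison 22.2% of all tested genes were called in either direction and 9.31% were called lower, and the median over the members was -0.46. The count was 4 without the second WT BtdCPU library and 2 without the third WT DMSO library. Without PERK, BtdCPU gave 0 calls among the members by edgeR and 0 by DESeq2, with 1 member at an unadjusted p below 0.05, where 3.59% of all tested genes were called. The summed level of the members was 31.8 ± 5.97 CPM with BtdCPU in WT against 49.0 ± 3.75 CPM with DMSO, and 70.6 ± 9.99 against 84.4 ± 7.94 CPM in PERK -/-.

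**Figure D2:**
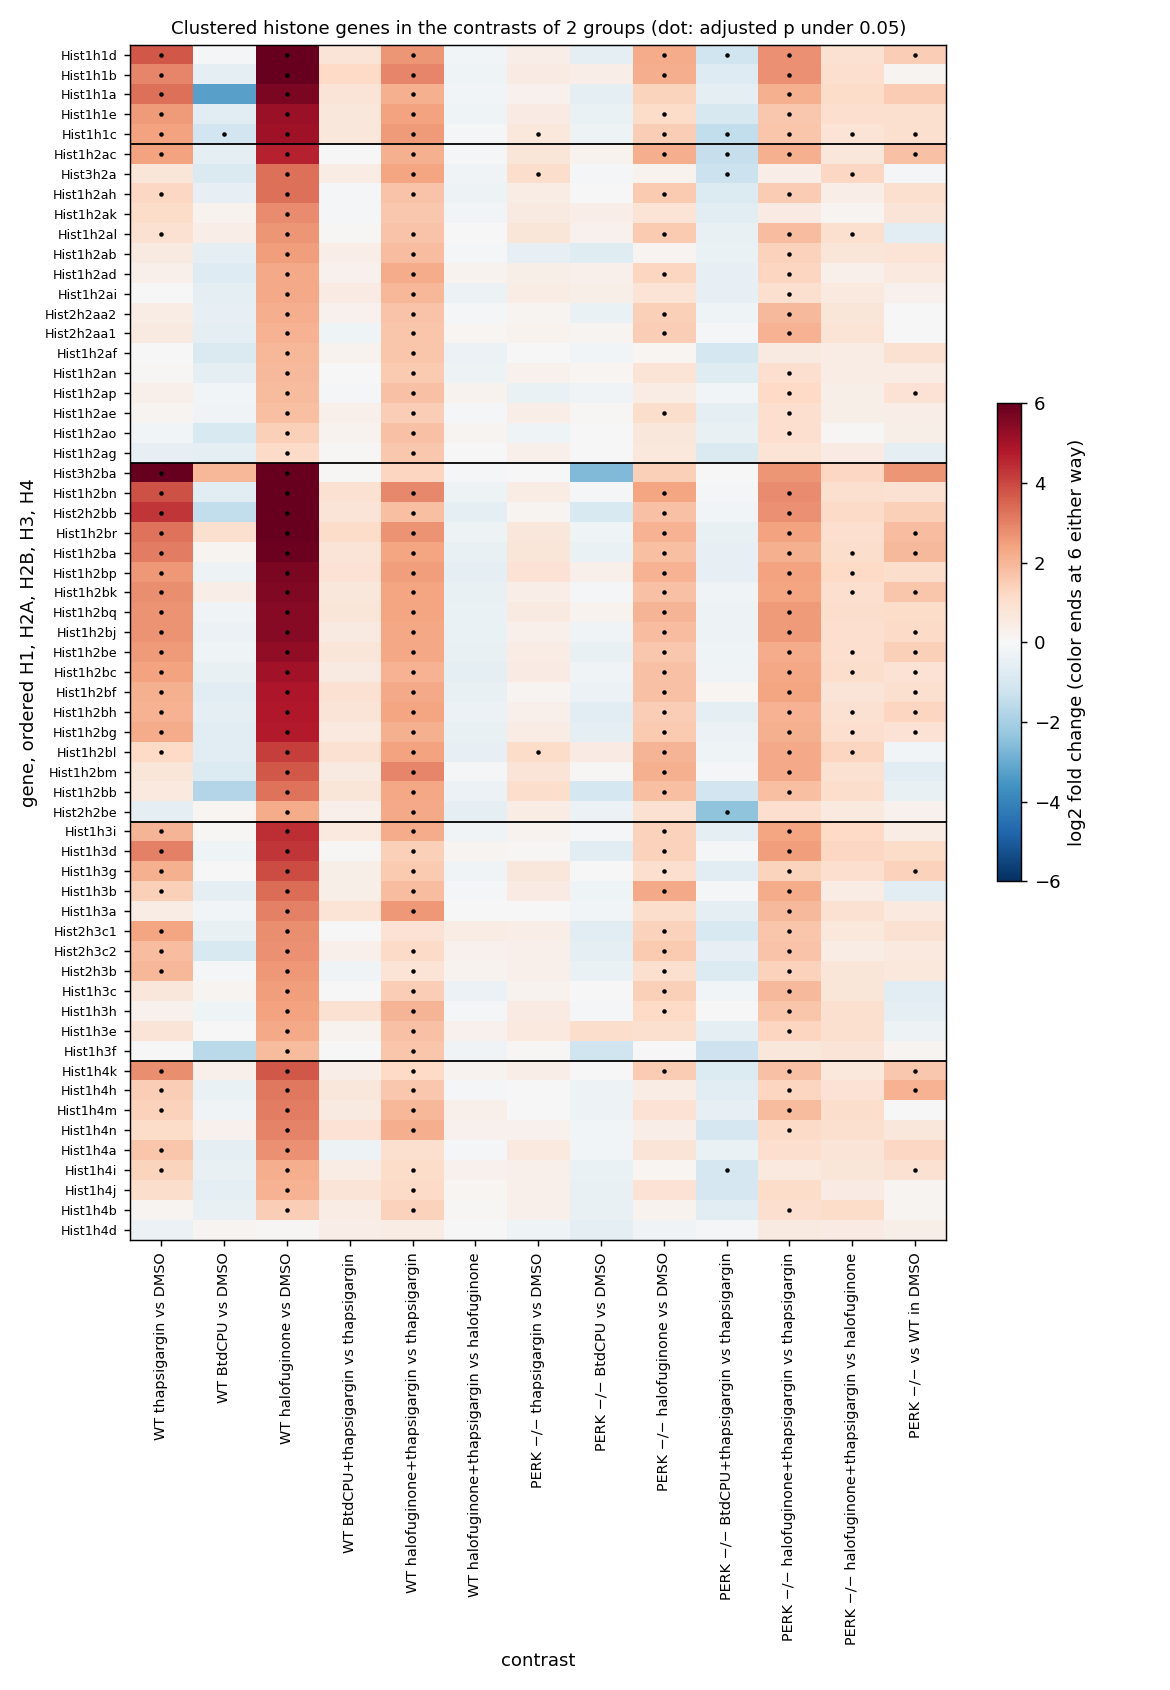
Log2 fold change of the 60 members (rows, by class) in the 13 comparisons of 2 groups (columns); colour is clipped at 6 in either direction and a dot marks an adjusted p below 0.05. The WT halofuginone column has 59 dots, the WT thapsigargin column 35 and the PERK -/- halofuginone column 37, all rises.

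Halofuginone also raised histone mRNA in PERK -/- cells. Of the 60 members 37 were called higher and none lower, where 42.2% of all tested genes were called in either direction and 21.2% were called higher. The median log2 fold change was 1.39, with values from -0.22 to 2.36, and the 37 called members had groups that did not overlap. For the members named above that passed the count threshold only through halofuginone libraries, these values are descriptions. By class, 4 of 5 H1 genes rose with a median of 1.48, 16 of 18 H2B genes with 1.78, 9 of 12 H3 genes with 1.29, 7 of 16 H2A genes with 0.83 and 1 of 9 H4 genes with 0.46. Hist1h4k was the H4 gene called, at 1.54 (SE 0.380, adjusted p = 0.00139, edgeR).

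In the same comparison Hist1h1c was at 33.3, 30.5 and 26.5 CPM in PERK -/- with DMSO and at 101, 68.1 and 83.5 CPM with halofuginone, a log2 fold change of 1.48 (SE 0.236). Hist1h2bc went from 12.3, 12.3 and 10.4 CPM to 42.6, 35.2 and 40.2 CPM, a change of 1.75 (SE 0.235). In both genes every treated library was above every control library. Hist1h2bn had the largest called rise, from 0.273, 0.524 and 0.323 CPM to 1.75, 1.84 and 2.19 CPM, at 2.36 (SE 0.589, adjusted p = 0.0016, edgeR). Hist3h2a was at 4.26, 4.13 and 3.44 CPM with DMSO and 5.10, 4.37 and 4.36 CPM with halofuginone, a log2 fold change of 0.22 with an adjusted p of 0.616. Hist1h4i likewise did not pass, at 0.12 with an adjusted p of 0.796.

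Thapsigargin raised 3 members in PERK -/- cells, where 27.9% of all tested genes were called in either direction and 15.2% were called higher. The share of members called, 3 of 60, was below that background, and the median log2 fold change was 0.38. Hist1h1c was at 50.1, 49.4 and 39.2 CPM, a change of 0.62 (SE 0.233, adjusted p = 0.0459, edgeR). Hist3h2a was at 9.02, 8.65 and 6.97 CPM, a change of 1.06 (SE 0.318, adjusted p = 0.0118), and Hist1h2bl at 0.894, 0.573 and 0.694 CPM against 0.355, 0.358 and 0.296 CPM with DMSO, a change of 1.09 (SE 0.406, adjusted p = 0.0424). The count was 0 without the third PERK -/- DMSO library or without the first PERK -/- thapsigargin library, and 1 without the first or the second PERK -/- DMSO library. With median-of-ratios scaling it was 1, and Hist1h2bl did not pass when any of 5 of the 6 libraries was left out.

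The genotype difference in the response was tested as an interaction, the response in PERK -/- minus the response in WT. For halofuginone 37 of 60 members were called lower and none higher, where 35% of all tested genes were called in either direction and 17.5% were called lower. The median difference was -2.06 on the log2 scale, and none of the 60 members had a positive difference. Of H1 genes 5 of 5 were called with a median of -4.08, of H2B genes 15 of 18 with -3.48, of H4 genes 6 of 9 with -2.05, of H3 genes 4 of 12 with -1.53 and of H2A genes 7 of 16 with -1.28. Without the third WT halofuginone library 30 members were called, and the median was -1.53. The difference was -3.60 (SE 0.338, adjusted p = 3.81e-09, edgeR) for Hist1h1c, -3.29 (SE 0.336) for Hist1h2bc and -3.10 (SE 0.454) for Hist3h2a.

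For thapsigargin 24 members were called lower and none higher in the interaction, where 38.1% of all tested genes were called in either direction and 18.6% were called lower. The median difference was -1.06. All 5 H1 genes were called with a median of -2.47 and 13 of 18 H2B genes with -2.05, against 4 of 12 H3 genes with -1.19, 1 of 9 H4 genes with -1.03 and 1 of 16 H2A genes with -0.16. Hist1h1c had a difference of -1.81 (SE 0.333, adjusted p = 5.98e-05, edgeR) and Hist1h2bc of -1.93 (SE 0.336). Hist3h2a had a difference of 0.33, which did not pass. Hist3h2ba had the most negative fitted difference in both interactions, and it had at most 9 counts in any PERK -/- library. Its membership rests on the WT halofuginone libraries, so both differences are descriptions. Both of its calls were lost without the second PERK -/- DMSO library, as given in the closing paragraphs. For BtdCPU 0 members were called by edgeR and by DESeq2, with 1 at an unadjusted p below 0.05, where 0.199% of all tested genes were called.

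**Figure D3:**
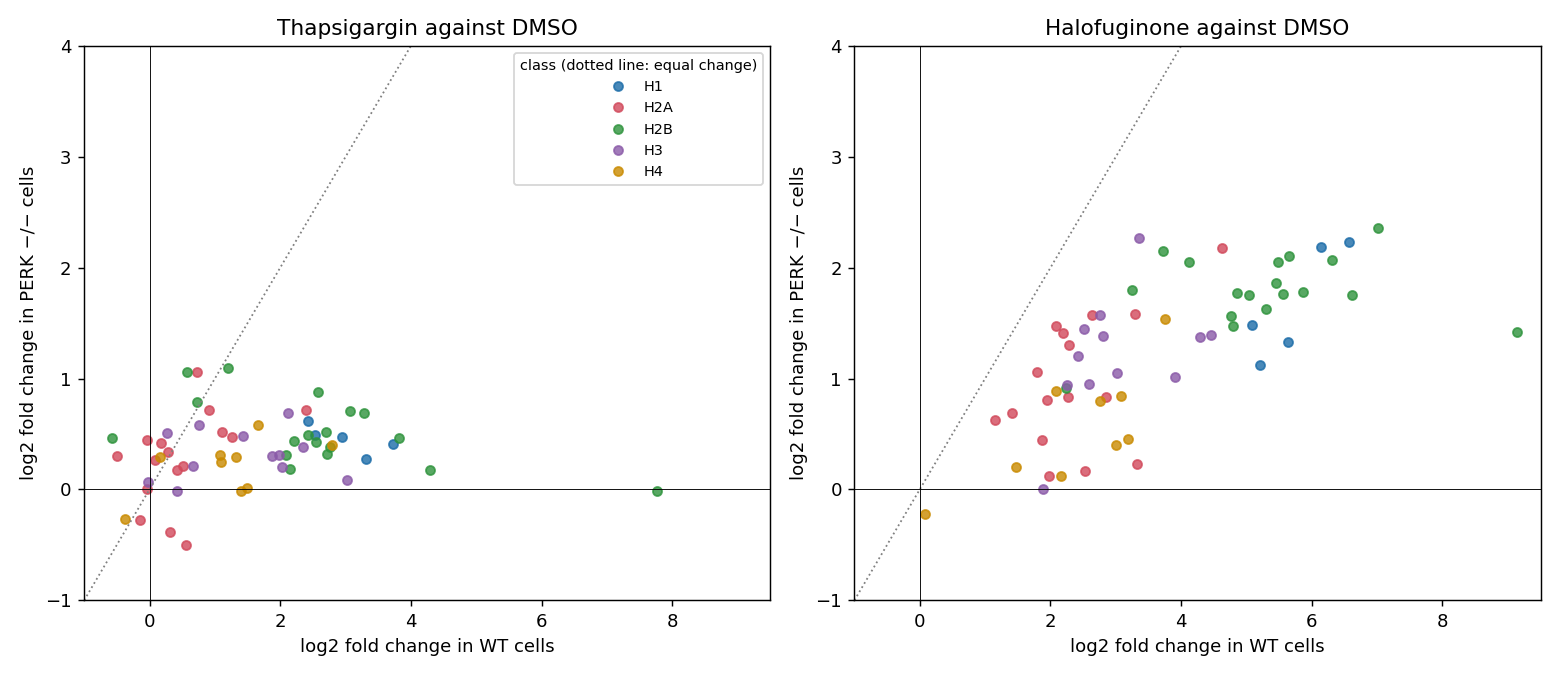
Log2 fold change of each member in WT (horizontal) and in PERK -/- (vertical) with thapsigargin and with halofuginone, each against DMSO; colour gives the class and the dotted line marks equal change. With halofuginone every member lies below the line, and the medians were 3.22 in WT and 1.39 in PERK -/-.

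The summed level of the members in DMSO was higher in PERK -/- cells, at a mean of 84.4 CPM against 49.0 CPM in WT. In DMSO 17 of 60 members were called higher in PERK -/- than in WT and none lower, where 49.5% of all tested genes were called in either direction and 24.6% were called higher. The share of members called higher was thus close to that background. The median log2 difference was 0.78, and the 17 called members had groups that did not overlap. Of H2B genes 9 of 18 were called, of H4 genes 3 of 9, of H1 genes 2 of 5, of H2A genes 2 of 16 and of H3 genes 1 of 12. Hist1h1c was 0.96 higher (SE 0.240, adjusted p = 0.0013, edgeR), Hist1h2bc 0.89 higher and Hist1h4i 0.91 higher. Hist1h4h had the largest called difference, at 0.819, 0.606 and 0.323 CPM in PERK -/- and 0.171, 0.197 and 0.031 CPM in WT, which is 2.08 on the log2 scale (SE 0.575, adjusted p = 0.0032). Without the third WT DMSO library 10 members were called.

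Adding halofuginone to thapsigargin raised histone mRNA in both genotypes. In WT, 55 members were called higher than with thapsigargin alone and none lower, where 45.3% of all tested genes were called in either direction and 22.8% were called higher. The median log2 fold change was 1.92, all 60 members were positive, and 54 of the 55 had groups that did not overlap. All 5 H1 genes rose with a median of 2.57, 17 of 18 H2B genes with 2.35, 15 of 16 H2A genes with 1.72, 11 of 12 H3 genes with 1.62 and 7 of 9 H4 genes with 1.18. Of the members in PERK -/-, 49 were called higher and none lower, where 52.7% were called in either direction and 25.2% were called higher, and the median was 1.77. There all 5 H1 genes rose with a median of 2.14, 16 of 18 H2B genes with 2.34, 12 of 16 H2A genes with 1.10, 11 of 12 H3 genes with 1.68 and 5 of 9 H4 genes with 1.08. Members that passed the count threshold only through halofuginone libraries, named above, are descriptions in both genotypes here.

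With both agents Hist1h1c was at 426, 409 and 646 CPM in WT, 2.57 above thapsigargin alone (SE 0.241, edgeR), and at 177, 126 and 142 CPM in PERK -/-, 1.68 above it (SE 0.235). Hist1h1b had the largest called rise in WT, to 12.2, 12.4 and 25.1 CPM, at 2.92 (SE 0.414). Hist1h2bn had the largest in PERK -/-, from 0.596, 0.518 and 0.427 CPM to 4.76, 2.75 and 3.58 CPM, at 2.84 (SE 0.541). The difference between genotypes in this added response gave 2 members lower and none higher, where 32.7% of all tested genes were called in either direction and 16.9% were called lower. The share called was below that background and the median difference was -0.17. The 2 were Hist1h1c at -0.89 (SE 0.324, adjusted p = 0.0342) and Hist3h2a at -1.99 (SE 0.431, adjusted p = 0.000531). The count was 1 when the second or the third PERK -/- library with both agents was left out, or the first or the second PERK -/- thapsigargin library. It was also 1 without the third WT library with both agents or without the first or the third WT thapsigargin library. Without the third library of either WT halofuginone group, a setting chosen after seeing the data, 4 members were called, 3 higher and 1 lower, so the direction of this count is not settled.

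The values of Hist3h2a and Hist1h2bc show how members varied in this added response. In WT Hist3h2a was at 27.3, 27.2 and 52.3 CPM with both agents, against 5.05 to 8.91 CPM with thapsigargin alone. In PERK -/- it was at 12.6, 9.30 and 10.4 CPM with both agents, against 6.97 to 9.02 CPM, a change of 0.39 that did not pass (adjusted p = 0.288, edgeR). Hist1h2bc changed by 2.07 in WT and by 2.31 in PERK -/-, and its difference between genotypes was 0.24.

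Adding thapsigargin to halofuginone was read against halofuginone alone. In WT 0 members were called by edgeR and 0 by DESeq2, with 2 at an unadjusted p below 0.05, where 14% of all tested genes were called, and the summed level was 1000 ± 301 CPM against 1167 ± 586 CPM. The WT count was 1 when any one of the 3 halofuginone libraries or the third library with both agents was left out, higher in 1 of these cases and lower in the others. In PERK -/- 11 members were called higher and none lower, where 6.43% were called in either direction and 3.27% were called higher. The median was 0.90, all 60 members were positive, and the summed level went from 223 ± 31.5 to 412 ± 67.9 CPM. Of the 11, 8 were H2B genes, 2 were H2A genes and 1 was an H1 gene.

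Hist1h2bl had the largest called rise in that PERK -/- comparison, from 1.38, 1.13 and 1.70 CPM to 3.84, 3.16 and 3.34 CPM, at 1.30 (SE 0.321, adjusted p = 0.0089, edgeR). Hist1h2bc rose by 1.06 (SE 0.225), Hist3h2a by 1.23 (SE 0.314) and Hist1h1c by 0.82 (SE 0.230, adjusted p = 0.0246). The count rested on single libraries. It was 2 without the second and 6 without the third PERK -/- halofuginone library, and 4 without the first and 6 without the third library with both agents. It was 23 with no filter on low counts and 25 when only the 2 groups compared were fitted.

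Adding BtdCPU to thapsigargin gave member medians of opposite sign in the 2 genotypes, with few members called in either. The members were measured in the same libraries, so a count of positive members is a description. In WT the median log2 fold change was 0.45 and 50 of 60 members were positive. There 0 members were called by edgeR and 2 by DESeq2, with 15 at an unadjusted p below 0.05, where 2.32% of all tested genes were called. With a replicate block, which the check of pairing allows for this comparison, 5 members were called. The count was 1 without the first WT library with both agents and 2 without the second WT thapsigargin library. In PERK -/- the median was -0.51 and 2 members were positive. There 6 were called lower and none higher, where 35.6% of all tested genes were called in either direction and 18.3% were called lower, so the share called was below that background.

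The 6 members that fell in PERK -/- were Hist1h1c, Hist1h1d, Hist1h2ac, Hist3h2a, Hist2h2be and Hist1h4i. Hist1h1c was at 17.7, 18.5 and 13.3 CPM with both agents, below the 39.2 to 50.1 CPM with thapsigargin alone and also below the 26.5 to 33.3 CPM with DMSO. Its log2 fold change was -1.49 (SE 0.240, edgeR). Hist2h2be, an H2B gene of the Hist2 cluster, had the largest called fall, from 0.352, 0.245 and 0.454 CPM to 0.0268, 0.0545 and 0.108 CPM, at -2.41 (SE 0.692, adjusted p = 0.0064). The share of H1 in the members' CPM was 26.9 ± 0.936% with both agents against 41.2 ± 0.548% with thapsigargin alone, while that of H2B was 41.3 ± 0.675% against 28.0 ± 2.96%. In WT with both agents the H1 share was 49.1 ± 1.39%.

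The difference between genotypes in this response gave 8 members lower and none higher, where 20.8% of all tested genes were called in either direction and 10.1% were called lower. The share of members called lower was close to that background, the median was -0.97 and 1 member was positive. Hist1h1c had a difference of -2.15 (SE 0.331, adjusted p = 1.57e-05, edgeR), and Hist3h2a of -1.74 (SE 0.445). The count was 3 without the second WT library with both agents or the third WT thapsigargin library. It was 4 without the first WT or the first PERK -/- thapsigargin library, 5 without the third PERK -/- library with both agents and 13 without the second WT thapsigargin library.

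Other genes of DNA replication were lower in some comparisons where the clustered histones were higher, and higher in others. Of 41 genes of S phase and replication, all tested, 8 were called higher and 30 lower with halofuginone in WT, with a median log2 fold change of -0.65. The fall was -2.44 for Chaf1b, a subunit of the CAF-1 histone chaperone, -1.82 for Pold1, the catalytic subunit of DNA polymerase delta, and -1.69 for Ccne1, a cyclin of the entry into S phase. With thapsigargin in WT none was called higher and 34 lower, with a median of -0.80. The list in PERK -/- had 2 genes higher and 23 lower with halofuginone, with a median of -0.39. Further comparisons with histone rises gave mixed directions for the list. The shares of all tested genes called in each of these comparisons are given above. With halofuginone added to thapsigargin in WT, 16 were higher and 6 lower, with a median of 0.19, while in PERK -/- 5 were higher and 18 lower, with a median of -0.32. In PERK -/- against WT with DMSO 17 were higher and 1 lower, with a median of 0.24, and with thapsigargin added to halofuginone in PERK -/- 1 was higher and 0 lower, with a median of 0.03. The summed level of the list was 6771 ± 809 CPM in WT with DMSO, 5237 ± 127 CPM with halofuginone and 4235 ± 322 CPM with thapsigargin, and 7920 ± 28.6 CPM and 6451 ± 248 CPM in PERK -/- with DMSO and halofuginone. Its part in the histone result was not tested.

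**Figure D4:**
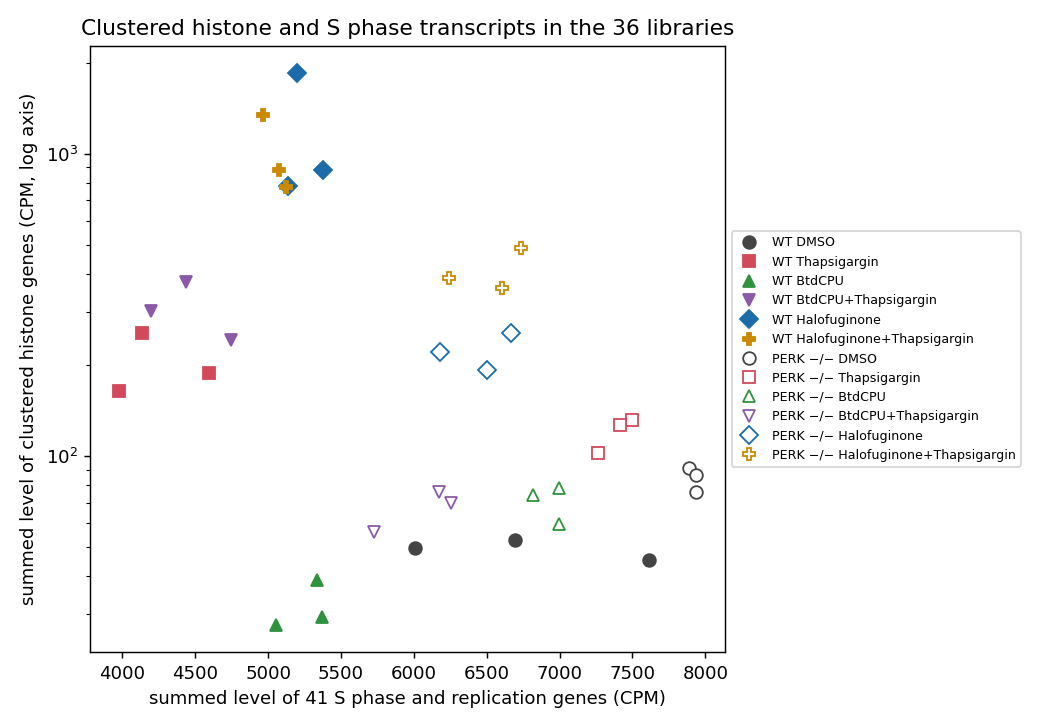
Summed level of the 60 clustered histone genes (CPM, logarithmic axis) against that of the 41 S phase and replication genes (CPM) in the 36 libraries, marked by group. The WT halofuginone libraries have 779 to 1841 CPM of histone mRNA at a lower S phase sum, 5237 CPM on average, than the WT DMSO libraries at 6771 CPM.

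Genes that process or degrade histone mRNA changed in both directions. Of 26 tested of 29, 5 were called higher and 13 lower with halofuginone in WT, with a median of -0.30. In that comparison 68.2% of all tested genes were called in either direction, and the share of this list called was close to that background. Slbp, the stem-loop binding protein, fell by 0.28 there and by 0.79 with thapsigargin, and by 0.57 in PERK -/- with halofuginone. Snrpg, a protein of the spliceosomal snRNPs, fell by 1.07 with halofuginone in WT and Mif4gd, a partner of SLBP in translation, by 1.09. Npat, which activates histone gene transcription, rose by 0.39 and Casp8ap2, a component of the histone locus body, by 0.44.

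Histone genes that are expressed outside S phase and carry poly(A) tails gave both directions. Of 12 replication-independent histone genes, 2 were called higher and 8 lower with halofuginone in WT, with a median of -0.66. Of all tested genes 68.2% were called in either direction there and 34.7% were called higher. H3f3b, which encodes the replacement histone H3.3, rose by 1.83, from 332 ± 10.6 to 1177 ± 114 CPM, and H1f0, the linker histone of cells that stop dividing, rose by 1.56. H3f3a, which encodes the same H3.3 protein, fell by 2.06. With halofuginone in PERK -/- 2 were higher and 7 lower, with a median of -0.43, where 42.2% of all tested genes were called.

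Known RNAs that lack a poly(A) tail, other than histones, served as a measure of how much such RNA the libraries held. Of 23 listed, 22 were in the count table and 9 were tested. The sums given here are of the 22, and the calls and medians are of the 9. The sum was 1.64 to 9.46 CPM in a library. With halofuginone in WT none was called higher and 5 were called lower, where 68.2% of all tested genes were called in either direction. The median log2 fold change was -1.27, and the sum was 1.85 ± 0.156 CPM against 4.34 ± 1.02 CPM with DMSO. The same comparison in PERK -/- had 0 higher and 3 lower, where 42.2% of all tested genes were called in either direction. The median was -0.68, and the sum was 4.21 ± 0.551 CPM against 7.75 ± 1.15 CPM. The clustered histones and this list thus had opposite signs, and the part of RNA selection in the histone result was not tested.

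Genes of cell cycle exit and growth arrest were split. Of 16, 7 were called higher and 8 lower with halofuginone in WT, where 68.2% of all tested genes were called in either direction. Gadd45a, induced by stress and DNA damage, rose by 6.04, Plk2, a stress-induced polo-like kinase, by 3.70 and Btg2, an antiproliferative gene, by 3.07, whereas Gas1, a gene of growth arrest, fell by 3.57, and the median was -0.63. With halofuginone in PERK -/- 6 were higher and 7 lower, with a median of -0.44, where 42.2% of all tested genes were called. There Gadd45a rose by 5.13 and Cdkn1a, the cyclin-dependent kinase inhibitor p21, by 2.30, while Rbl2, a relative of the retinoblastoma protein, fell by 1.29 and Cdkn2c, another inhibitor of cyclin-dependent kinases, by 1.18. Their part in the histone result was not tested.

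Outside the set, the genes whose log2 CPM followed the mean of the members most closely over the 36 libraries, among 10223 candidates, were Gadd45b (Pearson correlation 0.961), LOC102640169 (0.959), D930016D06Rik (0.947), Kctd9 (0.940) and Fbxo33 (0.938). Gadd45b is a stress-induced relative of Gadd45a. The libraries share groups and treatments, and these correlations are descriptions.

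Near the threshold on mean count, the members just inside were Hist1h2ak at 11.0 counts per library, Hist1h4d at 11.4, Hist2h2be at 13.4, Hist1h3a at 13.6, Hist1h3f at 14.1, Hist1h3e at 14.6 and Hist1h4b at 14.9. Those just outside were Hist1h4c at 9.36, Hist2h4 at 8.31 and Hist2h2ac at 8.14. Of the 9 symbols below the threshold 6 had enough counts to be tested.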

How the data were processed

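RNA was sequenced from 36 mouse embryonic fibroblast libraries in 12 groups of 3, with a strand-specific kit per the labels. The authors deposited 1 table of estimated counts per gene symbol. The submitters' processing notes name GRCm39 and DESeq, and the aligner, counter, annotation and use of strand are not given in the sources used here. In the deposited estimated counts 50.6% of values were 0.025, read here as 0, and 2.69% of the others were not whole, so all were rounded. Every other member value was whole. A total of 27 entries named by dates, 0.206% to 0.278% of a library, were left out, and 86 entries that share 39 symbols were summed. Columns were matched to samples by reading their coded names as genotype (Plus as WT, Minus as PERK -/-), initials of the agents (V as DMSO) and replicate number, and no column was left over (0).

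Tests used edgeR 4.0.16 with limma 3.58.1 in R 4.3.3: filterByExpr, TMM scaling, 12 group means and a robust quasi-likelihood fit with 24 residual degrees of freedom and a common dispersion of 0.0199. The 18 contrasts were adjusted by Benjamini-Hochberg over 16065 genes, and genes were called below an adjusted p of 0.05. CPM used TMM-scaled library sizes, and the SE is the log2 fold change divided by the square root of F. A count of 0 was read as allowing 3 counts per library, which covers counting error only. Libraries held 32454257 to 37178107 counts. The fit was tested on simulated data. Alternatives were no filter, median-of-ratios scaling, library size alone, a replicate block within genotype, leaving out each library, fitting only the groups compared, and the DESeq2 1.42.0 Wald test. Another, leaving out the third libraries of both WT halofuginone groups, was chosen after seeing the data.

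Replicates differed by a chi-square of at least 9.06 per degree of freedom. Same-numbered libraries were read as paired where all 3 correlations of their deviations exceeded 0.1, which held in WT for BtdCPU with thapsigargin against thapsigargin (0.159 to 0.337) and for halofuginone with thapsigargin against thapsigargin (0.162 to 0.308) and against halofuginone (0.218 to 0.502).

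The members and lists were chosen with earlier results of these data known. Named members were the 3 with the highest mean CPM in each class, the largest called rise and fall in each comparison and the largest called difference in each interaction, with members within 1.5 times of the threshold. The 5 genes nearest in pattern and up to 4 genes of each list with the largest changes were also named, and any other gene is named as a member of a count it stands beside.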

Additional observations from a re-analysis of the deposited data

Results flagged for a closer look

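The responses of the 2 genotypes were compared by the interaction test of edgeR (PERK -/- response minus WT response). For thapsigargin against DMSO 24 of 60 members differed, all lower, where 18.6% of all tested genes were called lower. Hist3h2ba had a fitted difference of -7.77. For halofuginone against DMSO 37 members differed, all lower, where 17.5% of all tested genes were called lower. Members that passed the count threshold only through halofuginone libraries are descriptions in that comparison. There Hist3h2ba had a fitted difference of -7.72. Hist3h2ba had 0 counts in each WT DMSO library, so both of its values depend on the prior count, and it is a member only through the WT halofuginone libraries (mean count 6.57 without them), so both are descriptions. For BtdCPU with thapsigargin against thapsigargin 8 members were called, all lower, with Hist2h2be at -2.73 (adjusted p = 0.0414). That share was close to the 10.1% of all tested genes called lower. For halofuginone with thapsigargin against thapsigargin 2 members were called, both lower, with Hist3h2a at -1.99. That share was below the 16.9% of all tested genes called lower. Without the third library of either WT halofuginone group 4 were called, 3 higher and 1 lower.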

How the results depend on the processing

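The counts in WT with thapsigargin and with halofuginone, in PERK -/- with halofuginone, with halofuginone added to thapsigargin in both genotypes, and in the thapsigargin and halofuginone interactions stayed within 1.5 times under every alternative. Scaling by library size alone changed no direction of a count. Without the filter on low counts, WT BtdCPU gave 5 members, WT BtdCPU with thapsigargin against thapsigargin 9, WT halofuginone with thapsigargin against halofuginone 1, and the same comparison in PERK -/- 23. The BtdCPU interaction then gave 1 and that of BtdCPU with thapsigargin 14. The DESeq2 Wald test gave 3 for WT BtdCPU and 2 for WT BtdCPU with thapsigargin against thapsigargin. Median-of-ratios scaling gave 1 for PERK -/- thapsigargin, and fitting only the groups compared gave 25 for PERK -/- halofuginone with thapsigargin against halofuginone. The replicate block gave 5 for WT BtdCPU with thapsigargin against thapsigargin, 20 for PERK -/- halofuginone with thapsigargin against halofuginone and 15 for the interaction of BtdCPU with thapsigargin. Only the first of these 3 is paired by the check, and the block moved no other count by over 1.5 times. Without the third library of either WT halofuginone group, WT halofuginone had 58 calls with a median of 2.49, halofuginone with thapsigargin against thapsigargin 53 with 1.62, and the halofuginone interaction 30 with -1.53. The interaction of halofuginone with thapsigargin then gave 4, of which 3 were higher and 1 lower.

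Leaving out each library in turn gave 28 to 34 calls for WT thapsigargin, 1 to 4 for WT BtdCPU, 58 to 59 for WT halofuginone, 0 to 2 for WT BtdCPU with thapsigargin, 47 to 57 for WT halofuginone with thapsigargin against thapsigargin and 0 to 1 against halofuginone. In PERK -/- it gave 0 to 2 for thapsigargin, 29 to 36 for halofuginone, 4 to 7 for BtdCPU with thapsigargin, 41 to 49 for halofuginone with thapsigargin against thapsigargin and 2 to 8 against halofuginone. It gave 10 to 15 for PERK -/- against WT in DMSO, and in the interactions 20 to 26 for thapsigargin, 30 to 40 for halofuginone, 3 to 13 for BtdCPU with thapsigargin and 1 to 2 for halofuginone with thapsigargin. The median of the BtdCPU interaction, 0.19, ran from -0.026 without the third to 0.39 without the second WT BtdCPU library. Hist3h2ba did not pass without the second PERK -/- DMSO library, at -5.14 for thapsigargin and -5.08 for halofuginone. Hist2h2be did not pass in the interaction of BtdCPU with thapsigargin in 7 of 12 such fits, and over the 12 its values ran from -3.35 to -2.03. Except where fewer samples or genes enter by construction, the cause was not tested. The 25 members under 1 CPM are the ones that depth limits most.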
